A study of Mus musculus with 12 samples.

Results

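The 9 genes described here, Ern1, Eif2ak3, Atf6, Xbp1, Atf4, Ddit3, Trib3, Herpud1 and Sesn2, belong to the unfolded protein response and the integrated stress response. They were taken by symbol from the 23079 genes of the count table, and all 9 were present and passed the filter on low counts. RNA came from dopaminergic neurons of C57BL/6 mice, from the substantia nigra pars compacta (SNpc, 6 columns of counts) or the ventral tegmental area (VTA, 6 columns). The labels call the samples TRAP samples, read here as translating ribosome affinity purification, which enriches RNA bound to the ribosomes of a chosen cell type. Both groups were untreated as far as the labels say. The age and number of the animals and the promoter that drives the ribosomal tag are not stated in the labels used. Counts in SNpc columns 4 and 5 were identical throughout, and so were those in VTA columns 2 and 3. Since neither pair differed even by sampling noise, each entered as 1 sample (called SNpc library 4 and VTA library 2), which left 5 libraries per region.

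Cells answer an overload of unfolded protein in the endoplasmic reticulum (ER) through 3 membrane sensors. IRE1 (Ern1) splices the Xbp1 mRNA so that it encodes an active transcription factor, ATF6 is cut from the membrane and becomes a factor itself, and PERK (Eif2ak3) phosphorylates the initiation factor eIF2. Phosphorylation of eIF2, which kinases for other stresses share, slows translation in general while translation of the Atf4 mRNA goes up. ATF4 then induces genes of amino acid supply and, with Ddit3 (CHOP), genes such as Trib3. Secretory and pacemaking neurons carry a steady protein and calcium load on the ER, and this response has been studied widely in models of Parkinson disease. The counts combine spliced and unspliced Xbp1 mRNA, and they say nothing of eIF2 phosphorylation, ATF6 cleavage or protein amounts.

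Total counts ran from 62356964 to 81393907 per library. All 12 dopaminergic markers had counts in every library, and their summed level was 10947 to 15937 counts scaled to library size (CPM) in SNpc and 5634 to 9231 in VTA. Of these markers, 11 were higher in SNpc. Summed astrocyte markers (8 genes) ran from 41.0 to 140 CPM in SNpc and from 93.4 to 131 in VTA, and summed oligodendrocyte markers (8 genes) from 263 to 1294 and from 658 to 821. The highest SNpc value of each belonged to SNpc library 4. Summed microglial markers (8 genes) were 15.05 to 40.0 against 37.4 to 53.1 CPM, with C1qa and Trem2 at a count of 0 in at least 1 library. Endothelial markers (8 genes, Cldn5 at 0 in at least 1 library) summed to 1.38 to 11.96 and 3.65 to 96.0 CPM, the highest in VTA library 1. Markers of other neurons (8 genes, Slc6a4 at 0 in at least 1 library) summed to 111 to 411 and 277 to 412 CPM. Relative to the mean library, longer transcripts were less abundant in each SNpc library (-0.19 to -0.04 in log2 CPM for each doubling in length) and more abundant in each VTA library (0.07 to 0.24), most of all in VTA libraries 1 (0.18) and 2 (0.24).

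Of the 9 genes, 4 were called higher in SNpc and 2 higher in VTA. A call means an adjusted p under 0.05 over 15685 genes by edgeR's quasi-likelihood test with Benjamini-Hochberg adjustment. Those higher in SNpc were the 3 transcription factor genes Xbp1, Atf4 and Ddit3 and the ER degradation gene Herpud1. Those higher in VTA were the sensor gene Atf6 and the pseudokinase gene Trib3. Ern1, Eif2ak3 and Sesn2 did not pass the test. The 9 genes had 66.7% called, beside 38.2% of all genes tested, with 17.8% of all genes higher in SNpc and 20.4% higher in VTA. Their median log2 fold change, SNpc minus VTA, was 0.03, beside -0.04 over all genes. For 2 of the 9, Xbp1 and Atf6, all CPM values of one region lay above those of the other, which held for 26.6% of all genes. In these bulk libraries, fewer cells of a type and less RNA per cell cannot be told apart.

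**Figure D1:**
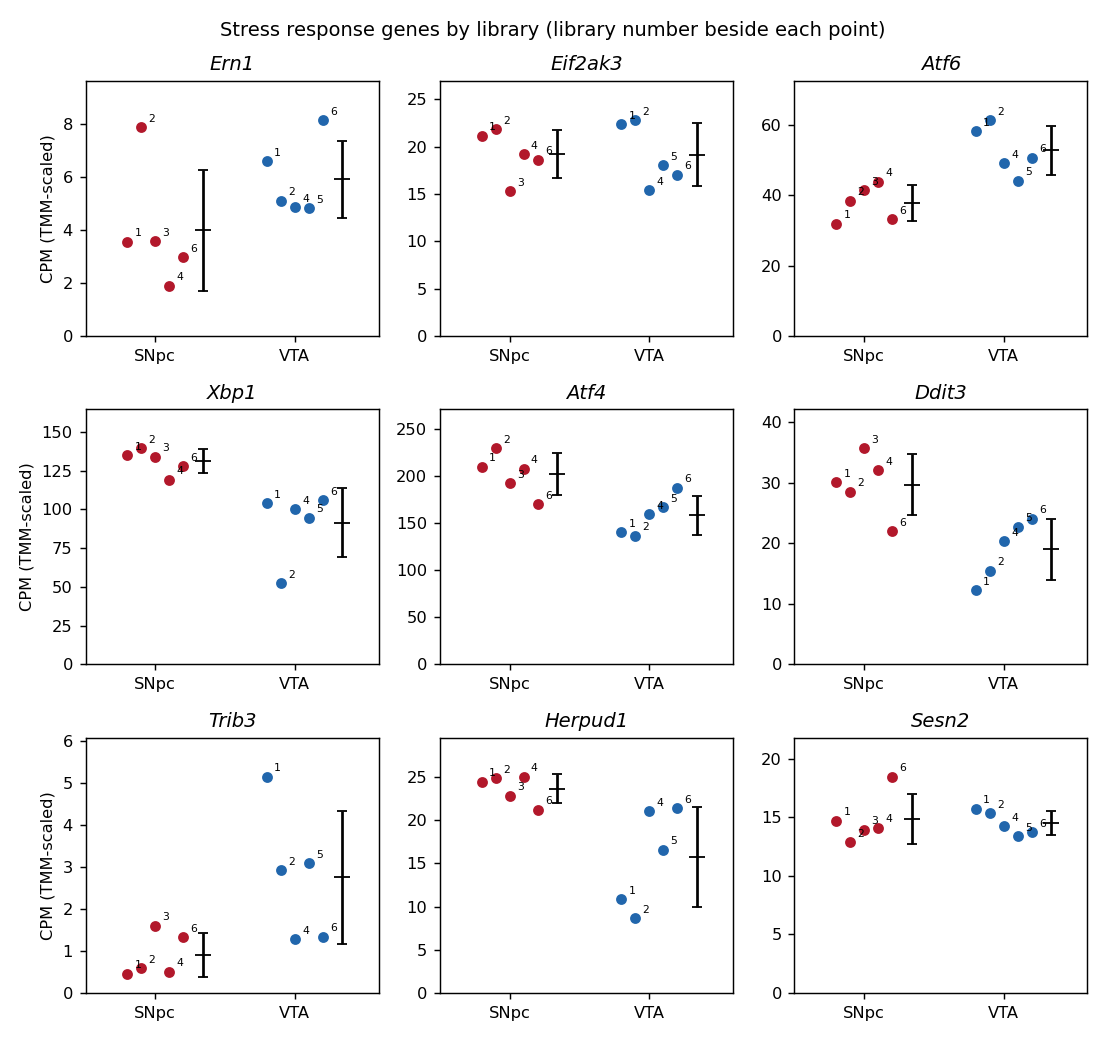
TMM-scaled CPM of the 9 genes (vertical axes, each from 0) in the 5 SNpc and 5 VTA libraries. Points are libraries with their numbers, and bars show the mean ± SD. All SNpc values of Xbp1 lay above, and all of Atf6 below, the VTA values, and VTA libraries 1 and 2 held the lowest Ddit3 and Herpud1.

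Among the sensors, Atf6, the membrane-bound precursor of a transcription factor (Entrez 226641, mm10 chromosome 1, 170704457 to 170868585), stood at 31.9, 38.6, 41.6, 44.0 and 33.2 CPM in SNpc libraries 1, 2, 3, 4 and 6. The values in VTA (libraries 1, 2, 4, 5 and 6, the order kept from here on) were 58.3, 61.5, 49.2, 44.2 and 50.8 CPM. The regions did not overlap, although SNpc library 4 and VTA library 5 were close together. It averaged 37.8 ± 5.19 CPM over the SNpc and 52.8 ± 7.01 over the VTA libraries (SD, n = 5 each). This is a log2 change of -0.48 ± 0.13 (SE, edgeR adjusted p = 0.00756), or 1.40-fold more in VTA. The kinase and ribonuclease gene Ern1 (Entrez 78943, chromosome 11, 106397620 to 106487796) was the least even sensor. It had 3.56, 7.89, 3.58, 1.90 and 2.98 CPM in SNpc and 6.59, 5.11, 4.86, 4.83 and 8.16 in VTA. SNpc library 2 lay inside the VTA range and the other 4 SNpc libraries below it. The log2 fold change of -0.57 (95% interval -1.31 to 0.17) missed the threshold (edgeR adjusted p = 0.219), and without SNpc library 2 it was -0.97 and passed (edgeR adjusted p = 0.0273). The eIF2 kinase gene Eif2ak3 (Entrez 13666, chromosome 6, 70844484 to 70905241) averaged 19.2 ± 2.58 CPM over the SNpc and 19.1 ± 3.30 over the VTA libraries (SD, n = 5 each). Its SNpc libraries ran from 15.3 to 21.8 CPM and its VTA libraries from 15.4 to 22.8, nearly the same range. The 95% interval of its log2 fold change was -0.34 to 0.35. Its exons share 485 bases with Gm43292 on the opposite strand, and since the counting is not known to use strand, reads of such overlaps cannot be told apart.

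Xbp1, the factor activated by IRE1 (Entrez 22433, chromosome 11, 5520641 to 5525993), had 135, 139, 134, 119 and 128 CPM in the SNpc libraries and 104, 52.5, 100.3, 94.7 and 106 in the VTA libraries. The SNpc libraries were close together and all above VTA, and VTA library 2 stood far below the other 4 of its region. SNpc exceeded VTA 1.43-fold (log2 fold change 0.52 ± 0.15, SE, edgeR adjusted p = 0.0112). Atf4, the central factor of the integrated stress response (Entrez 11911, chromosome 15, 80255184 to 80257545), had 210, 230, 193, 208 and 170 CPM in SNpc and 141, 137, 160, 167 and 188 in VTA. The regions overlapped, since SNpc library 6 lay below VTA library 6. SNpc exceeded VTA 1.28-fold (log2 fold change 0.35 ± 0.11, SE, edgeR adjusted p = 0.0157). Ddit3, which encodes the stress-induced factor CHOP (Entrez 13198, chromosome 10, 127290793 to 127296291), had 30.1, 28.5, 35.7, 32.1 and 22.02 CPM in SNpc and 12.3, 15.5, 20.3, 22.7 and 24.1 in VTA. Only SNpc library 6 fell inside the VTA range. SNpc exceeded VTA 1.56-fold (log2 fold change 0.65 ± 0.19, SE, edgeR adjusted p = 0.0118). Ddit3 shares 68 exonic bases with Mars, a tRNA synthetase gene on the opposite strand, and its count is uncertain to that extent.

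Among the targets, Herpud1, an ER membrane protein of the degradation machinery (Entrez 64209, chromosome 8, 94386429 to 94395371), had 24.5, 24.9, 22.9, 25.0 and 21.2 CPM in SNpc. In VTA it had 10.8, 8.66, 21.1, 16.6 and 21.4 CPM. VTA libraries 1 and 2 were far below SNpc, whereas VTA libraries 4 and 6 were next to its lower edge. SNpc exceeded VTA 1.51-fold (log2 fold change 0.59 ± 0.22, SE, edgeR adjusted p = 0.0416). Leaving out any of SNpc libraries 1, 2 and 3 or VTA libraries 1, 2 and 5 ended this call, with edgeR adjusted p from 0.0616 to 0.101. Trib3, a pseudokinase that ATF4 and CHOP induce (Entrez 228775, chromosome 2, 152337425 to 152344060), was the rarest of the 9, with 29 to 445 reads per library. It had 0.46, 0.59, 1.596, 0.50 and 1.33 CPM in SNpc and 5.14, 2.92, 1.28, 3.08 and 1.33 in VTA. VTA libraries 1, 2 and 5 exceeded all SNpc libraries, and VTA libraries 4 and 6 lay within the SNpc range. VTA exceeded SNpc 3.07-fold (log2 fold change -1.62 ± 0.57, SE, edgeR adjusted p = 0.0341). Its call ended without any of SNpc libraries 1, 2 and 4 or VTA libraries 1, 2 and 5, with edgeR adjusted p from 0.0645 to 0.125. Sesn2, a stress-induced regulator of amino acid and mTORC1 signalling (Entrez 230784, chromosome 4, 132492804 to 132510456), averaged 14.8 ± 2.13 CPM over the SNpc and 14.5 ± 1.01 over the VTA libraries (SD, n = 5 each). Its VTA libraries, 13.4 to 15.7 CPM, lay inside the SNpc range of 12.9 to 18.4. The 95% interval of its log2 fold change ran from -0.30 to 0.37.

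Within a region the 9 genes did not share a common order of libraries. In SNpc, Xbp1 and Herpud1 were the most even, with the highest library 1.17-fold and 1.179-fold above the lowest on the scale of log2 CPM. In VTA the same genes spread 2.01-fold and 2.47-fold. VTA libraries 1 and 2 held the 2 lowest values of Atf4, Ddit3 and Herpud1 in that region and the 2 highest of Atf6, Eif2ak3 and Sesn2. These libraries also had the highest length slopes of all 10 and the lowest summed dopaminergic markers, 7128 and 5634 CPM. The part of the dopaminergic marker sum in the differences was not tested, whereas the length trend was removed in a separate fit. With both left out, a choice made after the values were seen, Xbp1 alone of the 9 was called (log2 fold change 0.39, edgeR adjusted p = 0.0069).

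**Figure D2:**
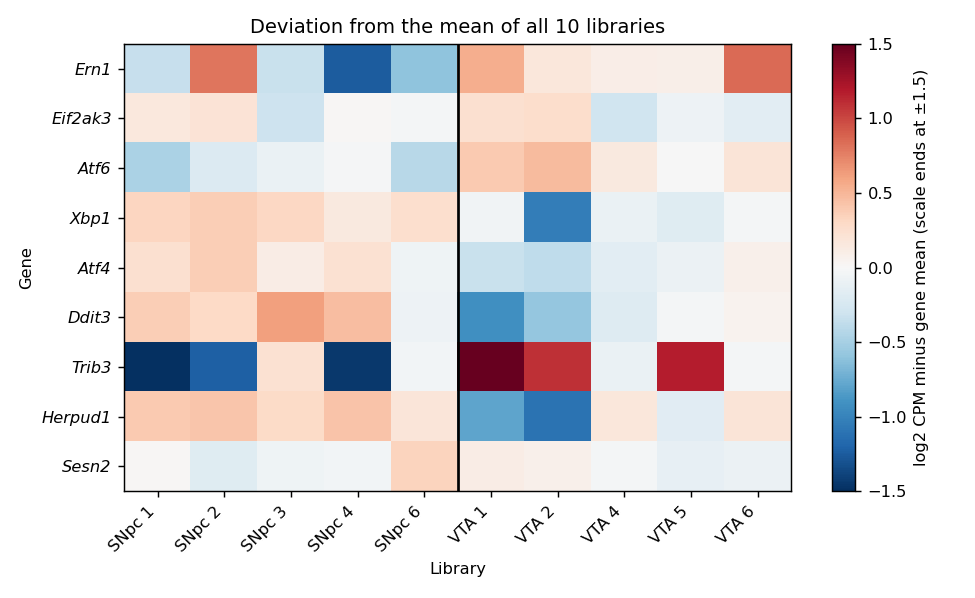
Log2 CPM of each gene (rows) in each library (columns) minus the gene's mean over the 10 libraries, with red above and blue below the mean. The black line parts SNpc from VTA. VTA libraries 1 and 2 stand out from the other VTA libraries in Ddit3 and Herpud1, and VTA library 2 in Xbp1.

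Transcript length and base composition moved with these calls, except that of Trib3, whose trend part ran against its log2 fold change. The part of each log2 fold change given by the length and GC trend of the libraries was 0.24 for Atf4, 0.40 for Ddit3, 0.16 for Xbp1, 0.19 for Herpud1, 0.13 for Trib3 and -0.33 for Atf6. The longest annotated transcripts of Ddit3 (890 bases), Atf4 (1725), Herpud1 (1952), Trib3 (2026) and Xbp1 (2129) were shorter than those of Sesn2 (3475), Eif2ak3 (4513), Ern1 (6946) and Atf6 (7246). With the trend removed and the library scale kept, the log2 fold changes were 0.12 for Atf4, 0.25 for Ddit3, 0.37 for Xbp1, 0.41 for Herpud1 and -0.14 for Atf6, and none of the 5 was called (edgeR adjusted p from 0.0545 for Xbp1 to 0.428 for Atf6). Trib3 was called in that fit (-1.76, edgeR adjusted p = 0.029), in which 30.8% of all genes were called. With glial markers as a covariate, Xbp1 (0.51), Atf4 (0.37) and Ddit3 (0.65) were called with edgeR adjusted p of 0.0427, 0.0336 and 0.0307. Atf6 (-0.36), Herpud1 (0.61) and Trib3 (-1.86) were not, with edgeR adjusted p of 0.0739, 0.0821 and 0.0935. In that fit 29.3% of all genes were called.

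**Figure D3:**
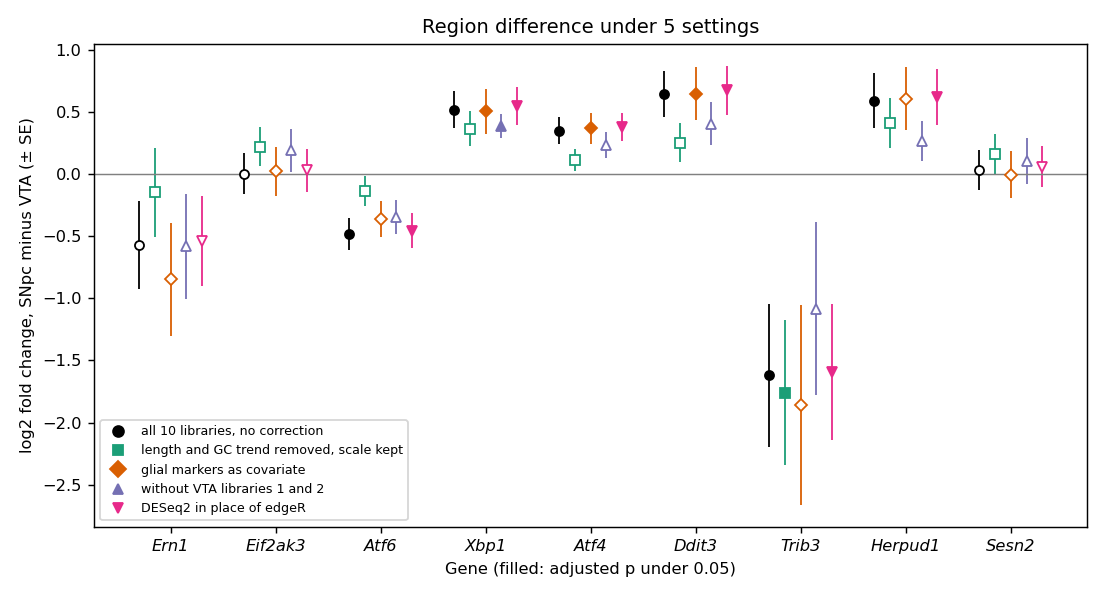
Log2 fold change, SNpc minus VTA, ± SE of each gene under 5 settings, with filled markers where the adjusted p was under 0.05. Trib3 is the filled marker that remains after removal of the length and GC trend, and Xbp1 the filled marker without VTA libraries 1 and 2.

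Per kilobase of the longest transcript, levels of the 9 genes spanned a wide range. Division by this length does not remove the length trend of the libraries, so the order between genes is approximate. In SNpc the order was Atf4 (117 ± 12.9 CPM per kb, SD, n = 5), Xbp1 (61.6 ± 3.70), Ddit3 (33.3 ± 5.66), Herpud1 (12.1 ± 0.833), Atf6 (5.22 ± 0.717), Sesn2 (4.26 ± 0.614), Eif2ak3 (4.26 ± 0.571), Ern1 (0.573 ± 0.329) and Trib3 (0.442 ± 0.261). Atf6, Sesn2 and Eif2ak3 were within their spread of each other, as were Ern1 and Trib3. In VTA, Atf4 (91.9 ± 11.98), Xbp1 (43.0 ± 10.4) and Ddit3 (21.3 ± 5.59) led as well. Herpud1 (8.05 ± 2.98) and Atf6 (7.29 ± 0.967) were within their spread there, and so were Eif2ak3 (4.24 ± 0.731) and Sesn2 (4.17 ± 0.292). Trib3 (1.36 ± 0.781) and Ern1 (0.851 ± 0.209) were the lowest, also within their spread.

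Of 19 genes around eIF2 (the other eIF2 kinases, the subunits of eIF2 and of its exchange factor eIF2B, and their regulators), 7 were higher in SNpc, 2 in VTA and 10 did not pass, 47.4% called beside the 38.2% of all genes, with a median log2 fold change of 0.26. Both genes higher in VTA encode the regulatory subunits of the phosphatase that reverses eIF2 phosphorylation. Ppp1r15a (GADD34), the stress-induced subunit and an ATF4 pathway target, had 7.90, 9.62, 8.14, 7.26 and 8.91 CPM in SNpc and 25.2, 29.8, 19.0, 22.8 and 25.3 in VTA. Every VTA library lay well above the highest SNpc library. VTA exceeded SNpc 2.92-fold (log2 fold change -1.55 ± 0.17, SE, edgeR adjusted p = 2.86e-06), and it was called in all 21 alternatives. It shares 12 exonic bases with Tulp2 on the opposite strand. The constitutive subunit gene Ppp1r15b changed by -0.37 (edgeR adjusted p = 0.04), a call that ended in 15 of 21 alternatives, among them the fits without SNpc library 1, 2, 3 or 4 or VTA library 1, 4 or 5 (edgeR adjusted p from 0.0659 to 0.124). Its exons share 640 bases with Gm26616 on the opposite strand. Higher in SNpc were Impact, an inhibitor of the amino acid-sensing eIF2 kinase (884 ± 103 against 640 ± 37.3 CPM, SD, n = 5 each, log2 fold change 0.47, edgeR adjusted p = 6.71e-04), and the beta subunit gene Eif2s2 (131 ± 10.4 against 87.5 ± 11.1 CPM, 0.58, edgeR adjusted p = 3.89e-04). The amino acid-sensing kinase gene itself, Eif2ak4, was 17.6 ± 2.49 against 18.5 ± 3.68 CPM, with a 95% interval of its log2 fold change of -0.43 to 0.30.

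Genes known as ATF4 targets did not move in a single direction. Of 27 listed, 24 were tested. Of these, 2 were higher in SNpc, 4 in VTA and 18 did not pass, 25.0% called beside the 38.2% of all genes, with a median log2 fold change of 0.02. The count higher in VTA was 2 without SNpc library 1, 2 or 3 or VTA library 1. Asparagine synthetase Asns was higher in SNpc, at 122, 110, 137, 116 and 105 CPM against 65.9, 77.5, 88.6, 94.2 and 87.2 in VTA, without overlap. This gave a log2 change of 0.51 ± 0.11 (SE, edgeR adjusted p = 0.00169), and it was 0.27 and not called with the length and GC trend removed (edgeR adjusted p = 0.0564). The amino acid transporter chain Slc3a2 changed by 0.59 (edgeR adjusted p = 0.00609). Its call ended with the glial covariate (edgeR adjusted p = 0.0854) and with the replicate number as a block (0.0542). In the other direction, the glutamine transporter Slc38a2 had 85.5, 84.0, 92.4, 116 and 120 CPM in SNpc and 210, 155, 194, 193 and 217 in VTA. The regions did not overlap, and the log2 fold change came to -0.96 ± 0.12 (SE, edgeR adjusted p = 1.7e-05), called in all 21 alternatives. Ddit4, a stress-induced inhibitor of mTORC1, changed by -0.62 (edgeR adjusted p = 0.0102). The Ddit4 call ended in the same fits (edgeR adjusted p = 0.0577 with the glial covariate and 0.0529 with the block). The cystine transporter Slc7a11 changed by -0.82 (edgeR adjusted p = 0.0297), but VTA library 1 had 60.5 CPM where the other VTA libraries had 20.0 to 23.8. Without VTA library 1 its log2 fold change was -0.36 and not called (edgeR adjusted p = 0.0834), and without any of SNpc libraries 1, 2, 3 and 6 it was not called either (edgeR adjusted p from 0.0526 to 0.069). In all, the Slc7a11 call ended in 11 of 21 alternatives. Others were the length and GC trend removed with scale kept (-0.40, edgeR adjusted p = 0.293) and the glial covariate (-0.48, 0.29). Chac1, a glutathione-degrading enzyme and ATF4 target, was 22.3 ± 4.47 against 16.5 ± 4.26 CPM (SD, n = 5 each) and did not pass (edgeR adjusted p = 0.104), but passed with a log2 fold change of 0.58 without SNpc library 4 (edgeR adjusted p = 0.0342). The stress-induced factor gene Atf3 was too rare to be tested. It had 1.54 CPM in VTA library 1, 0.852 in VTA library 4 and at most 0.198 in the other 8 libraries. VTA library 1 also had the highest Trib3 and the highest summed endothelial markers, whose part in these values was not tested.

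Of 22 ER chaperones and folding enzymes, 5 were higher in SNpc, 1 in VTA and 16 did not pass, 27.3% called beside the 38.2% of all genes, with a median log2 fold change of 0.25. The count higher in SNpc was 9 without SNpc library 4, and 3 without VTA library 1 or 2. Hspa5 (BiP), the chaperone that holds the sensors inactive and a classical readout of ATF6 activity, had 114, 96.3, 103, 72.8 and 141 CPM in SNpc and 102, 101, 117, 119 and 86.2 in VTA. The VTA libraries lay within the SNpc range, and the 95% interval of the log2 fold change was -0.30 to 0.31. Hsp90b1 (GRP94) was the most abundant of the list, at 277 ± 19.0 against 239 ± 40.2 CPM (SD, n = 5 each), and did not pass (edgeR adjusted p = 0.136). Its count is uncertain, since its exons share 415 bases with 1810014B01Rik on the opposite strand and 84 with Gm15344 on the same strand. Higher in SNpc were the prolyl isomerase Fkbp2 (116 ± 24.7 against 60.5 ± 10.1 CPM, log2 fold change 0.94, edgeR adjusted p = 1.08e-04) and calnexin, Canx (272 ± 33.5 against 205 ± 20.6 CPM, 0.41, edgeR adjusted p = 0.00464), a lectin chaperone of glycoproteins. The oxidase gene Ero1b, which supplies disulfide bonds, was higher in VTA (12.8 ± 4.55 against 20.9 ± 2.20 CPM, -0.71, edgeR adjusted p = 0.0138).

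In ER-associated degradation, 7 of 22 genes were higher in SNpc, 1 in VTA and 14 did not pass, 36.4% called beside the same 38.2%, with a median log2 fold change of 0.24. Vcp, the ATPase that extracts proteins from the ER membrane, averaged 216 ± 20.1 CPM over the SNpc and 144 ± 9.87 over the VTA libraries (SD, n = 5 each), a log2 fold change of 0.58 (edgeR adjusted p = 1.16e-04). The ubiquitin-conjugating enzyme Ube2j1 changed by 0.51 (edgeR adjusted p = 2.05e-04). Syvn1 (HRD1), the ubiquitin ligase with which the Herpud1 protein forms a complex, went the other way. It had 51.1, 40.3, 62.4, 40.4 and 49.1 CPM in SNpc and 80.0, 94.6, 76.2, 68.5 and 90.9 in VTA, without overlap. This gave a log2 change of -0.75 ± 0.13 (SE, edgeR adjusted p = 3.37e-04), called in all 21 alternatives, as were Vcp and Ube2j1. Vcp shares 352 exonic bases with 1700022I11Rik and Syvn1 shares 91 with Mrpl49, both on the opposite strand.

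Among 16 partners and relatives of the sensors, SNpc was higher for 2 and VTA for 2 (25.0% called beside the same 38.2%), with a median log2 fold change of -0.04. The count higher in SNpc was 4 without SNpc library 4 and 1 without SNpc library 1 or 3 or VTA library 1, 2, 5 or 6. The count higher in VTA was 1 without SNpc library 3 or VTA library 6. Ptpn1, an ER-bound tyrosine phosphatase (PTP1B), had 17.9, 17.2, 21.1, 24.0 and 24.4 CPM in SNpc and 46.5, 54.4, 50.6, 64.1 and 64.6 in VTA. All VTA libraries stood above all SNpc libraries, with a log2 change of -1.42 ± 0.14 (SE, edgeR adjusted p = 1.45e-06), called in all 21 alternatives. Creb3l2, a membrane-bound factor related to ATF6, changed by -0.89 (edgeR adjusted p = 0.0218), a call that ended in 8 of 21 alternatives. Among them were the fits without SNpc library 3 or 6 or VTA library 6 (edgeR adjusted p from 0.0543 to 0.0703). Others were the length and GC trend removed with scale kept (-0.46, edgeR adjusted p = 0.252) and the glial covariate (-0.66, 0.153). Tmbim6 (BAX inhibitor 1), an ER membrane protein that restrains IRE1, was higher in SNpc (209 ± 7.72 against 149 ± 26.9 CPM, SD, n = 5 each, 0.49, edgeR adjusted p = 0.00211). Bloc1s1, an mRNA that IRE1 cleaves, changed by 0.40 (edgeR adjusted p = 0.0497), but its exons share 720 bases with Rdh5. It lost its call in 14 of 21 alternatives, among them the fits without SNpc library 1, 2 or 3 or VTA library 1, 2, 5 or 6 (edgeR adjusted p from 0.0514 to 0.13), and its direction turned to -0.02 with the length and GC trend removed.

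**Figure D4:**
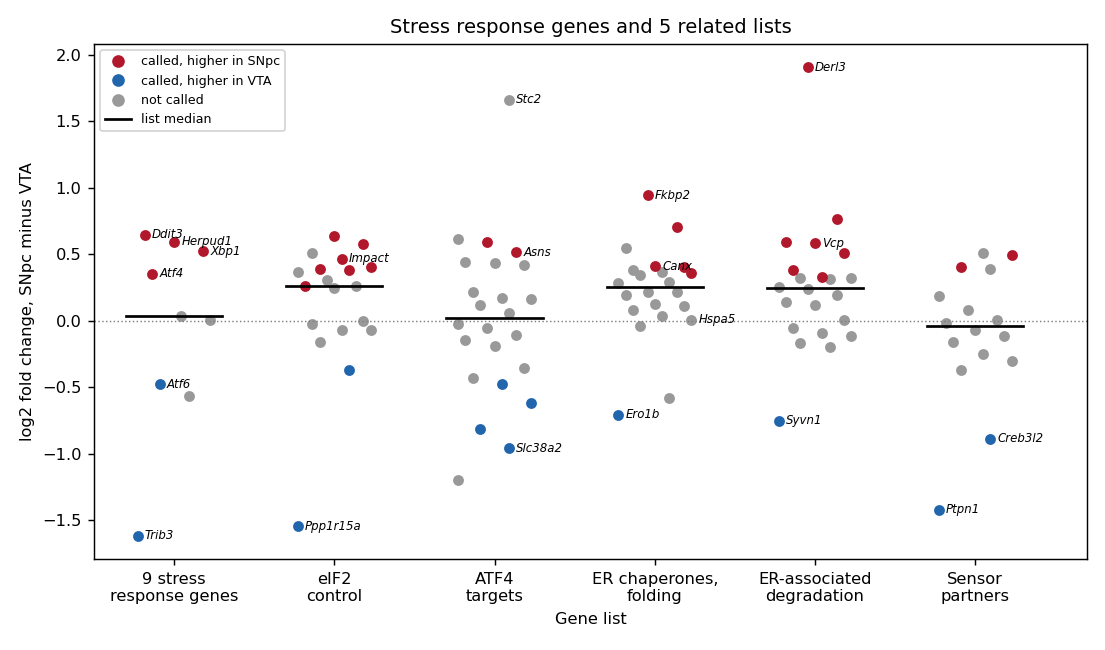
Log2 fold change, SNpc minus VTA (vertical axis), of each tested gene of the 9 stress response genes and 5 related lists. Each point is a gene, coloured by its call, and black lines are list medians, from -0.04 to 0.26. Ppp1r15a, Ptpn1, Slc38a2 and Syvn1 stand on the VTA side of lists with medians near or above 0.

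Some promoters of these genes carry known control elements, shown here for 3 genes that differ in outcome: Herpud1 and Asns, both higher in SNpc, and Hspa5, which did not pass the test. Sequences are from RefSeq on build GRCm38.p6, end at the base before the transcription start and run 5′ to 3′ along the gene. Capitals mark matches to the motifs searched on both strands: the ER stress element ERSE (CCAAT, any 9 bases, CCACG), its variant ERSE-II (ATTGG, any base, CCACG), the XBP1 and ATF6 element UPRE (TGACGTG), the C/EBP-ATF element CARE (TGATGNAA), which ATF4 binds, and the cyclic AMP element CRE (TGACGTCA). UPRE and CRE share their TGACGT letters.
Herpud1 (chr8:94386299-94386428, + strand): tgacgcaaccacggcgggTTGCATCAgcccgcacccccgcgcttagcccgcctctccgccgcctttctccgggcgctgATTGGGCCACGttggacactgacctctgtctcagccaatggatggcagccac
Hspa5 (chr2:34771930-34772089, + strand): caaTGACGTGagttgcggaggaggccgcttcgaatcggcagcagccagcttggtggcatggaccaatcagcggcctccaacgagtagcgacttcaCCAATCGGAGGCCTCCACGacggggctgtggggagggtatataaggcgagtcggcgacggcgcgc
Asns (chr6:7693210-7693319, - strand): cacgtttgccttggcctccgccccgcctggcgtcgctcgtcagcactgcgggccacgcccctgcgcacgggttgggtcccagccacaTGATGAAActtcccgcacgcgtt

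Of the 9 genes, 8 had a promoter sequence, of 250 bases before to 50 after the start. Herpud1 held an ERSE-II 52 to 42 bases before its start and a CARE on the reverse strand 112 to 105 bases before it. Trib3 held a CARE on the reverse strand just after its start. Those were the only matches among the 8 promoters. ERSE-II was present in 0.0365% of 32851 promoters, ERSE in 0.119%, CARE in 3.97%, UPRE in 2.01% and CRE in 1.79%. Among tested genes with a promoter sequence, 22 held an ERSE, of which 9 were higher in SNpc and 4 in VTA (59.1% called, beside 38.6% of all tested genes with a promoter sequence). Their median log2 fold change was 0.33, beside -0.02 for all. ERSE-II was held by 8 tested genes, with 2 higher in SNpc and 0 in VTA (25.0% called) and a median of 0.25. UPRE was held by 379 (82 and 71, 40.4% called, median 0.06). CRE was held by 416 (113 and 73, 44.7% called, median 0.14). The part of the length and GC trend in these shares was not tested. Genes of the chaperone and degradation lists with an ERSE lay on both sides. Canx (0.41), Calr (0.40) and Derl3 (1.90) were higher in SNpc, whereas Syvn1 (-0.75) and Ero1b (-0.71) were higher in VTA, and Hspa5 (0.01), Hsp90b1 (0.21), Pdia6 (0.12) and Creld2 (-0.59) did not pass. Pdia6 and Creld2 are given to complete the set. Calr and Derl3 were named after their values were seen. The Calr call ended in 10 of 21 alternatives. Among them were the fits without SNpc library 2 or 6 or VTA library 1, 2 or 4 (edgeR adjusted p from 0.0512 to 0.103). Others were the glial covariate (0.176) and the length and GC trend removed with scale kept (0.204). The Derl3 call ended with the glial covariate (edgeR adjusted p = 0.0604) and without VTA libraries 1 and 2 (0.0703). That of Ero1b ended in 4 of 21 alternatives, among them the glial covariate (0.0899). Genes with a CARE numbered 351, with 66 higher in SNpc, 81 in VTA (41.9% called, beside the same 38.6%) and a median of -0.08. Of the 24 ATF4 target genes with a promoter sequence, 8 held a CARE, and among them Asns (0.51) was higher in SNpc, and Slc7a11 (-0.82) and Vldlr (-0.48), a lipoprotein receptor, in VTA. Of the rest, Chac1 (0.43), Nupr1 (0.61) and Pycr1 (-0.11) did not pass, and Atf3 and Fgf21 were too rare to be tested. Nupr1, Pycr1 and Fgf21 are given to complete the set. Slc7a11 and Vldlr were named after their values were seen. The Vldlr call ended without any 1 of 8 libraries, all but SNpc library 6 and VTA library 6 (edgeR adjusted p from 0.0556 to 0.132), and the Slc7a11 call as described above. With the length and GC trend removed and scale kept, Vldlr changed by -0.14 and was not called (edgeR adjusted p = 0.519). A match is a run of letters and not a shown binding site, and Ppp1r15a held a CRE 12 to 5 bases before its start.

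Genes were also ranked by how closely their log2 CPM, centred on its own mean, followed each called gene over the 10 libraries. The measure is the root mean square difference, in log2 CPM. The region difference and the length trend were kept in, and the nearest were taken from all tested genes. Close genes therefore share the region difference. No distance for unrelated genes was computed, so nearness does not show a shared function. Nearest to Atf4 were the translation initiation factor subunit Eif3i (0.0737) and the methyltransferase activator Trmt112 (0.0751). Nearest to Ddit3 were the mitochondrial ribosomal protein genes Mrpl43 (0.0841) and Mrpl16 (0.1000). Xbp1 was followed most closely by Dad1 (0.0911), a subunit of the ER oligosaccharyltransferase, and by Patl2 (0.107). Nearest to Atf6 were the phosphate transporter Slc20a2 (0.0907) and Zfp106 (0.111), and nearest to Herpud1 were 1500011K16Rik (0.127) and Nop10 (0.130). For Trib3 the nearest genes, Tnfrsf19 (0.441) and Plscr2 (0.477), were several times farther away than those of the other 5.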

How the data were processed

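The deposited values are counts of reads per gene, whole numbers without normalization, for 23079 genes in 12 columns. The authors aligned reads with TopHat2 2.0.8 to mm10, per the submitters' processing notes. Which program counted the reads, with which annotation, strand setting and filters, is not given in the sources used here. Per the labels' protocols, cDNA was amplified from little RNA with the Ovation kit, which does not mark strand. Identical columns were counted once. The labels do not say whether separate animals lie behind the libraries. A p-value here therefore reflects only how far libraries scatter, which could be technical.

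The comparison used edgeR 4.0.16 (R 4.3.3): filterByExpr left 15685 genes, libraries were scaled by TMM, and a robust quasi-likelihood test compared the regions without covariates, with Benjamini-Hochberg adjustment and a threshold of 0.05. Standard errors were derived from the F statistic, and CPM values are TMM-scaled. Log2 CPM used a prior count of 2. On simulated data over 15505 genes of this comparison, the test recovered 38% of genes changed 1.5-fold and 66% of those changed 2-fold. The longest basic GENCODE transcript of each gene gave its length. The length and GC trend of each library was fitted by splines. Of the identifiers, 23008 matched RefSeq genes, and 0 columns lacked a sample.

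The 9 genes, the lists and the tests were chosen with earlier results of these data known. The text names the 9 genes, up to 2 called genes with the smallest p per direction and the most abundant gene of each list, 6 genes set beforehand (Hspa5, Asns, Atf3, Chac1, Ppp1r15a, Eif2ak4) and 4 genes chosen after their values were seen (Calr, Derl3, Slc7a11, Vldlr). DESeq2 1.42.0, other scalings, no filter, all 12 columns, a glial covariate, the length and GC trend, a replicate block and the removal of libraries were tried as alternatives.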

Additional observations from a re-analysis of the deposited data

Results flagged for a closer look

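In 5 of 72 groups of 5 libraries examined (each named gene in each region), 1 library stood apart from the rest by more than Dixon's critical value of 0.71. Chance flags about 1 in 20 such groups if they are chosen before the values are seen. The groups here include those of Calr, Derl3, Slc7a11 and Vldlr, named after their values were seen, so the shares cannot be compared. Xbp1 was 52.5 CPM in VTA library 2, where the other VTA libraries had 94.7 to 106. Ern1 was 7.89 CPM in SNpc library 2, where the others had 1.90 to 3.58. Tmbim6 was 195 CPM in SNpc library 1, a small step below the others at 211 to 213. Derl3, an ER degradation gene, was 4.03 CPM in VTA library 6, where the others had 0.404 to 1.27. Slc7a11 was 60.5 CPM in VTA library 1, where the others had 20.0 to 23.8.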

How the results depend on the processing

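The 35 named genes that were tested were recomputed under 21 alternatives, of which 588 results kept direction and side of the threshold, 118 lost their call, 2 gained one and 27 changed direction. No called gene changed direction except Bloc1s1. Removal of VTA libraries 1 and 2, and the set of 8 libraries without the number, were chosen after seeing the data. Where no construction shows it, the cause was not tested.

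Among the 9 genes, 4 were called in favour of SNpc and 2 of VTA. The counts were 0 and 1 with the length and GC trend removed (scale kept or refitted), 1 and 0 without VTA libraries 1 and 2, and 3 and 0 with the glial covariate. Leaving out each library gave 3 to 4 and 1 to 2. The eIF2 list (7 and 2) gave 3 in SNpc with library totals as scale, 1 in VTA with RLE scaling or no filter, 3 and 1 with the glial covariate, 1 in VTA with the trend removed, 4 and 1 without VTA libraries 1 and 2, and 5 to 10 and 1 to 2 with each library left out. The ATF4 targets (2 and 4) gave 1 in SNpc with the glial covariate, 2 in VTA with the trend removed or without VTA libraries 1 and 2, and 2 to 3 and 2 to 4 with each library left out. The chaperones (5 and 1) gave 9 in SNpc with all 12 columns, 3 and 0 with the glial covariate or without VTA libraries 1 and 2, and 3 to 9 and 1 to 1 with each library left out. The degradation genes (7 and 1) gave 4 in SNpc with the glial covariate, 3 without VTA libraries 1 and 2, and 5 to 8 and 1 to 1 with each library left out. The sensor partners (2 and 2) gave 4 in VTA with all 12 columns, 1 in SNpc with library totals, 1 and 1 with the glial covariate, the trend removed or without VTA libraries 1 and 2, and 1 to 4 and 1 to 2 with each library left out.

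The log2 fold change of Eif2ak3 turned to -0.051 with library totals and -0.041 with 12 columns (-0.062 to 0.080 with each library left out). Sesn2 turned to -0.022 with library totals and -0.0060 with the glial covariate (-0.056 to 0.11). Hspa5 turned to -0.052 with library totals, -0.062 with 12 columns, -0.26 with the glial covariate, -0.0036 and -0.012 with the trend removed (scale kept and refitted) and -0.023 without VTA libraries 1 and 2 (-0.12 to 0.17). Eif2ak4 turned to 0.20 in both fits with the trend removed (-0.18 to 0.040), and Bloc1s1 to -0.018 and -0.028.

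Each merged pair of columns took the lower of its 2 numbers, and the labels do not say whether numbers pair the regions. With that choice, the replicate numbers 1, 2, 4 and 6 occur in both regions. Same-numbered libraries did not deviate together (correlations -0.07 to 0.04), nor did every library correlate best with its own number. With the higher number, SNpc library 4 would pair with VTA library 5 (-0.11) and VTA library 2 with SNpc library 3 (0.08). No block was fitted that way. With the number as a replicate block, 4332 genes were called, against 4919 in the same 8 libraries without it. The block gave 1 and 1 of the 9 genes (Xbp1 and Atf6), against 3 and 2 in the same 8 libraries without it. The calls of Atf4 (edgeR adjusted p = 0.0804), Ddit3 (0.0507) and Trib3 (0.118) ended with the block, and that of Herpud1 ended in both fits (0.0644 and 0.0875). The block gave 2 and 1 of the eIF2 list, 1 and 1 of the ATF4 targets, 3 and 0 of the chaperones and 1 and 1 of the sensor partners. The same 8 libraries without the block gave 4 and 1 of the eIF2 list, 2 ATF4 targets in VTA, 0 chaperones in VTA and 1 sensor partner in SNpc. DESeq2 called 6640 genes. On simulated data 38% of 1.5-fold changes were recovered. Far fewer genes were changed there than were called here, so this share does not give the power of this comparison. Differences of the size of Atf4 may be missed, at a rate that the simulation does not give.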
